A study of Mus musculus with 8 samples.

Results

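Collagens are the triple-helical proteins of the extracellular matrix, and the collagen genes are described here in mouse pancreatic tumors grown in the liver and in the pancreas. The members are all gene symbols of the bulk count table made of Col, a number, the letter a and a number, with at least 10 reads summed over 6 libraries. Of 52459 symbols listed, 44 have such a name and 41 reached 10 reads. Just inside the minimum were Col9a2 with 14 reads and Col9a1 with 16, and just outside were Col6a4 with 9, Col26a1 with 3 and Col19a1 with 0. Of the 41 members, 36 passed the filter on low counts and were tested. Col17a1, Col4a3, Col22a1, Col9a1 and Col9a2, with 14 to 44 reads each in all, were not.

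Each collagen protein is a trimer of alpha chains, each chain the product of its own gene. Fibrillar collagens (types I, II, III, V, XI, XXIV and XXVII) build or nucleate the banded fibrils of stroma and are made mainly by fibroblasts and related cells. Type IV chains form the sheet-like network of basement membranes, which epithelial, endothelial and muscle cells rest on. Other types decorate fibrils, form beaded filaments, anchor membranes or span the cell surface. In pancreatic cancer a dense collagen-rich stroma is a known feature, and in injured liver hepatic stellate cells are a known source of fibrillar collagen.

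All tumors came from FC1242, a line of the KPC mouse model of pancreatic cancer, in C57BL/6 mice. For both sites 100000 cells were injected, and tumors were taken after 3 weeks. Liver tumors are labelled metastatic, and tumors of the pancreas are labelled primary. Whole tumors gave 3 liver and 3 primary bulk RNA-seq libraries, and CD45+ immune cells sorted from tumors gave 1 single-cell library per site. All tumors thus share 1 cancer line, and the labels do not say whether libraries of a site came from separate mice, so p-values measure the spread between these samples. The bulk libraries held 27481390 to 36743247 reads. In whole tumor tissue, fewer cells of a type and less RNA per cell cannot be told apart.

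Host and tumor tissue in the pieces differed between the sites and between primary tumors. All 15 hepatocyte markers were higher in liver tumors (summed 66106 to 125400 CPM, read counts scaled to library depth, against 142 to 589 CPM in primary tumors). Primary library 2 had the highest summed epithelial markers (14121 CPM, against 4475 and 5574 CPM in primary libraries 1 and 3). Primary library 1 had 903 CPM of adrenal markers, against 24.9 and 36.8 CPM in the other primary libraries. Over the 36 tested members, primary library 1 was the highest of the primary libraries for 24, and primary library 2 was the lowest of all 6 libraries for 23. Results are therefore given with and without these libraries where they change.

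Chains of types III, VI, XIV and XXV were higher in liver tumors and the type X chain was lower, while most collagen genes passed no test. In edgeR's quasi-likelihood test, with Benjamini-Hochberg adjustment over all genes at 0.05, 6 of 36 members were higher in liver tumors. These were Col3a1, Col6a3, Col6a5, Col6a6, Col14a1 and Col25a1. Among all 16487 genes tested, 16.7% were called higher, so the collagens were called at the background rate. Only Col10a1 was lower in liver tumors, where 6.26% of all genes were. The median log2 change, liver over primary, was 0.31 over the 36 members and -0.07 over all genes.

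Before adjustment 14 of 36 members passed at p under 0.05 (13 higher and 1 lower), where 36.7% of all genes passed in either direction. The share of all genes by direction was not counted at this step. On the CPM scale, every liver library lay above every primary one in 10 members, against 23.8% of all genes, and below every primary one in 2 members (Col4a1 and Col10a1), against 20.2%. Without primary library 1, 10 members were called higher and 1 lower, where 14.6% of all genes were called higher and 5.19% lower. Without primary library 2, 4 were higher and 3 lower, where 19.7% of all genes were higher and 8.62% lower. The lower members then also included Col11a2, a type XI chain, and Col12a1, the fibril-associated type XII chain (log2 change -0.96, adjusted p = 0.0241), which in all 6 libraries was at -0.51 (adjusted p = 0.536). Without any 1 liver library 3 were called higher, each time Col6a6, Col14a1 and Col25a1, and none lower, where 10.6% to 14.4% of all genes were higher and 0.787% to 4.84% lower.

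**Figure D1:**
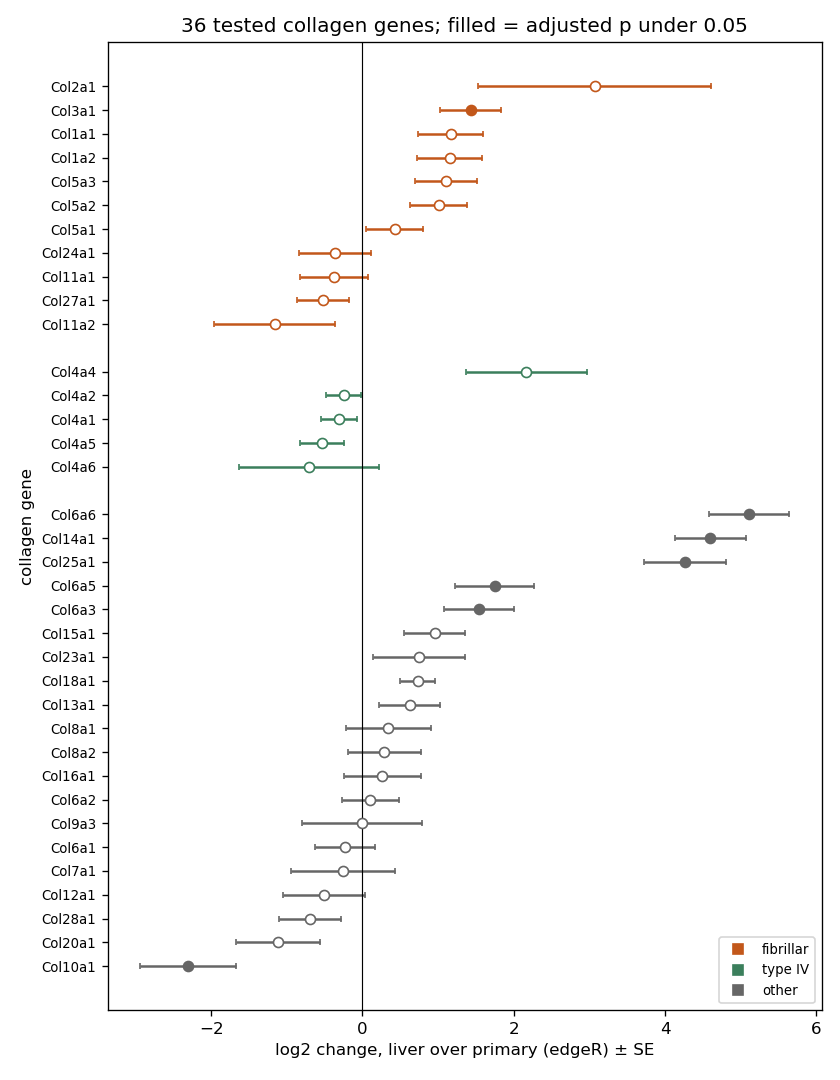
The log2 change of each tested collagen gene in liver over primary tumors (x axis, with its standard error) is drawn by class, and filled points passed an adjusted p of 0.05. Most fibrillar chains lie right of 0, the 2 abundant type IV chains lie just left of it, and Col6a6, Col14a1 and Col25a1 lie furthest to the right.

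Of the 11 fibrillar chains 7 had positive log2 changes, with a median of 1.01, but only Col3a1 passed the test. Col3a1, the single chain of type III collagen, had 59.3, 73.9 and 69.2 FPKM in liver tumors, against 42.6, 15.8 and 15.8 FPKM in primary tumors. FPKM are counts divided by 1 scaling factor per library and by a length constant of each gene. All 3 liver FPKM values lay above all 3 primary values, and primary library 1 stood above the other primary libraries. By share of all reads, liver library 1 (13228 of 28513818) lay below primary library 1 (17058 of 32326042). The log2 change was 1.43 (SE 0.41, adjusted p = 0.0379). It fell short of the threshold when any 1 of the 3 liver libraries, primary library 2 or primary library 3 was left out, with an adjusted p of up to 0.124.

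Type I collagen, the main fibril protein of most stroma, joins 2 gene products. Its chain Col1a1 had 33.1, 47.8 and 49.7 FPKM in liver tumors, against 33.9, 11.8 and 11.8 FPKM in primary tumors. Its partner Col1a2 had 22.8, 28.2 and 29.5 FPKM in liver tumors, against 21.3, 7.66 and 6.92 FPKM in primary tumors. In Col1a1 primary library 1 lay just above the lowest liver library, so the sites overlapped. In Col1a2 it lay just below the lowest liver library, without overlap. The other primary libraries were far lower in both genes. The log2 changes were 1.17 (SE 0.43, adjusted p = 0.0877) for Col1a1 and 1.15 (SE 0.43, adjusted p = 0.0895) for Col1a2. Without primary library 1 both were called higher, at log2 changes of 1.86 each. DESeq2 also called both higher (adjusted p = 0.0363 for Col1a1 and 0.0377 for Col1a2), and limma on log2(FPKM + 1) called Col1a2 (adjusted p = 0.0498).

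The type V chains regulate the width of type I fibrils. Col5a1 had 13.3, 14.6 and 19.3 FPKM in liver tumors, against 17.5, 5.77 and 11.5 FPKM in primary tumors (log2 change 0.43, SE 0.38, adjusted p = 0.448). Col5a2 had 10.1, 14.5 and 13.8 FPKM in liver tumors, against 10.5, 3.73 and 4.67 FPKM in primary tumors (log2 change 1.01, SE 0.38, adjusted p = 0.0953). The groups overlapped in both genes through primary library 1. Without it Col5a2 was called higher (log2 change 1.58, adjusted p = 0.00463). Col5a3, named after its values were seen, did not overlap between sites in FPKM or CPM, and its adjusted p was 0.0871, or 0.0399 in DESeq2.

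Of the remaining fibrillar chains, those of types II, XI and XXIV had low mean levels and varied between libraries. Col2a1, the type II chain of cartilage, was chosen for mention after its values were seen. It had 8.95, 0.07 and 0.78 FPKM in liver tumors, against 0.27, 0.03 and 0.83 FPKM in primary tumors. A single liver library carried most of its reads, and its log2 change of 3.07 had an SE of 1.54 (adjusted p = 0.189). Col11a1, Col11a2, Col24a1 and Col27a1 had negative log2 changes between -1.16 and -0.36, none past the threshold. Col27a1 was more abundant than the others, with 7.79, 5.16 and 5.08 FPKM in liver tumors, against 8.24, 4.91 and 12.4 FPKM in primary tumors. Without primary library 2, Col11a2 was called lower (log2 change -1.68, adjusted p = 0.0162, against -1.16 and 0.332 in all 6 libraries).

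**Figure D2:**
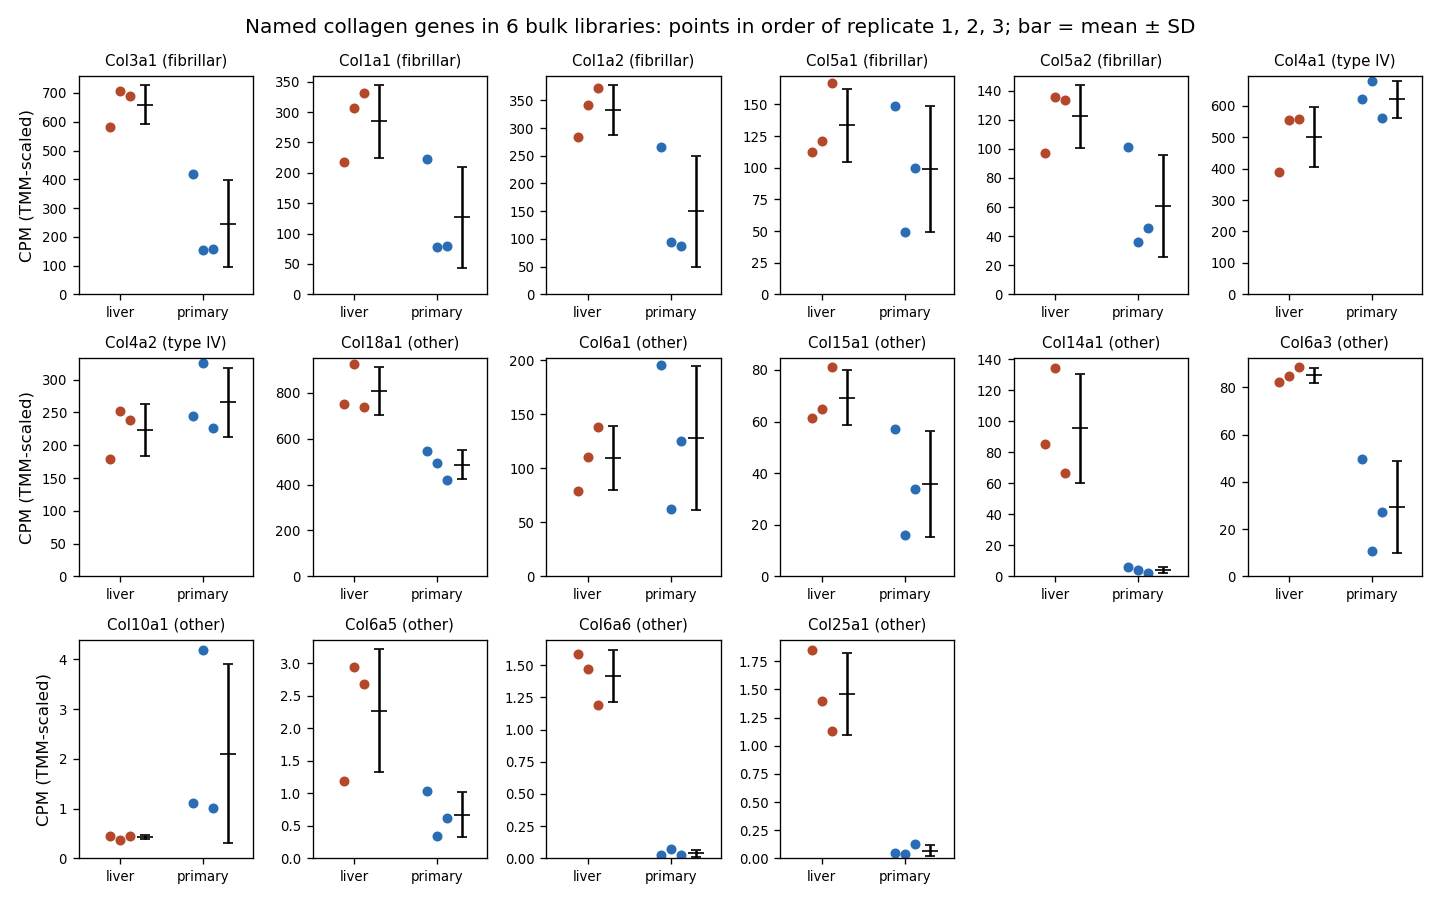
Each panel shows a named collagen gene in CPM (y axis, TMM-scaled, from 0), with points for liver replicates 1 to 3 at the left and primary replicates 1 to 3 at the right, and bars for the mean ± SD. Primary replicate 1 is the highest primary point in most fibrillar panels, and in Col14a1, Col6a6 and Col25a1 the 2 sites are far apart.

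Summed over the 11 fibrillar members, liver tumors held 169, 192 and 197 FPKM, against 145, 52.7 and 73.1 FPKM in primary tumors. All liver sums lay above all primary sums, with means of 186 ± 14.8 FPKM in liver tumors and 90.2 ± 48.3 FPKM in primary tumors (SD, n = 3 each, exact permutation p = 0.1, two-sided, the smallest that 3 against 3 allows). The log2 difference was 1.18 (SE 0.43). By share of all reads the fibrillar sums overlapped, as primary library 1 lay above liver libraries 1 and 2. Of the fibrillar sum, Col3a1, Col1a1 and Col1a2 made up 68.0% to 78.1% in liver tumors and 47.4% to 67.6% in primary tumors.

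The basement membrane chains of type IV had a median log2 change of -0.31, and none of the 5 tested passed. Col4a1 and Col4a2 encode the most widespread type IV chains. Col4a1 had 52.3, 76.3 and 73.6 FPKM in liver tumors, against 83.0, 91.1 and 73.4 FPKM in primary tumors. Liver libraries 2 and 3 lay within the primary range on the FPKM scale, while on TMM-scaled CPM all liver libraries lay below all primary ones. The log2 change was -0.31 (SE 0.24, adjusted p = 0.386). Col4a2 had 26.99, 39.0 and 35.6 FPKM in liver tumors, against 36.8, 49.2 and 33.5 FPKM in primary tumors (log2 change -0.25, SE 0.23, adjusted p = 0.475).

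Of the minor type IV chains, Col4a5 had 3.71, 5.68 and 7.82 FPKM in liver tumors, against 10.1, 7.09 and 7.55 FPKM in primary tumors. Its values overlapped between the sites, as did those of Col4a4, the only tested type IV member with a positive log2 change (2.16, SE 0.80, adjusted p = 0.0878, from 87 reads in all). Its head-to-head partner Col4a3, too low to be tested, had 2, 23 and 10 reads in liver tumors, against 3, 3 and 3 reads in primary tumors. The type IV sum was 84.1, 122 and 119 FPKM in liver tumors, against 134, 148 and 116 FPKM in primary tumors (exact permutation p = 0.3).

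The share of each class in collagen RNA did not overlap between sites for fibrillar and type IV members. Fibrillar members were 38.1% ± 1.99 of collagen FPKM in liver tumors and 24.6% ± 7.34 in primary tumors (SD, n = 3 each, exact permutation p = 0.1). Type IV members were 21.97% ± 1.97 in liver tumors and 39.0% ± 9.69 in primary tumors (exact permutation p = 0.1). Both p-values are the smallest the design allows. The sum over all 41 members was 427, 535 and 508 FPKM in liver tumors, against 449, 299.98 and 305 FPKM in primary tumors (exact permutation p = 0.2). Collagens took 0.268% to 0.395% of reads in liver tumors and 0.233% to 0.435% in primary tumors.

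**Figure D3:**
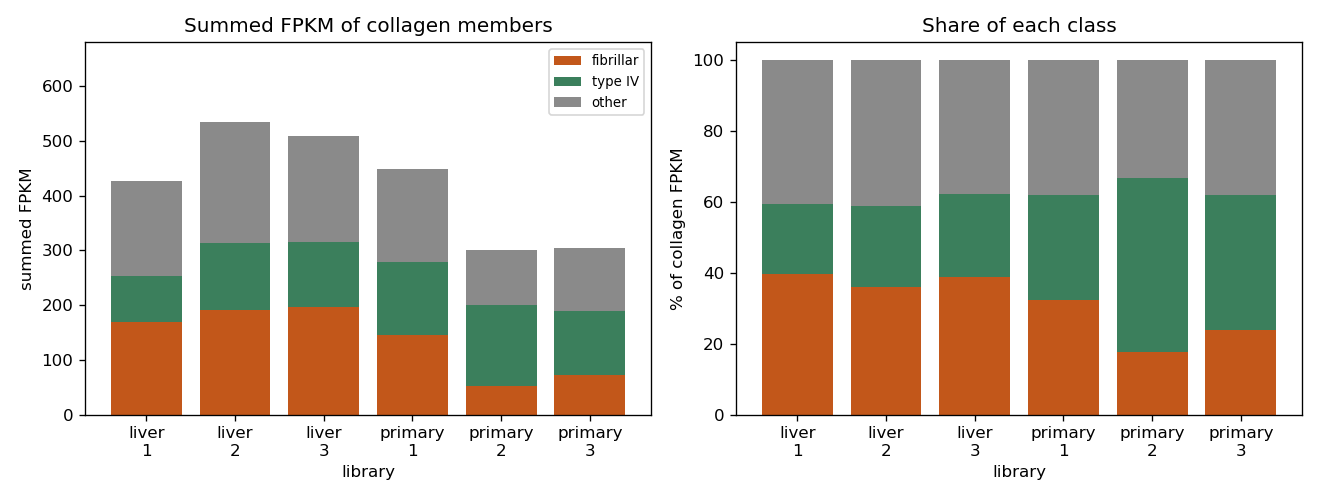
Stacked bars give, per bulk library, the summed FPKM of fibrillar, type IV and other collagen members (left) and the share of each class (right). The fibrillar share is 35.9% to 39.7% in liver libraries and 17.6% to 32.2% in primary libraries.

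Chains that join in 1 trimer were compared by their ratio. The ratio of Col1a1 to Col1a2 FPKM was 1.61 ± 0.14 in liver tumors and 1.61 ± 0.09 in primary tumors (SD, n = 3 each, exact permutation p = 0.9). That of Col4a1 to Col4a2 was 1.99 ± 0.07 in liver tumors and 2.10 ± 0.22 in primary tumors (exact permutation p = 0.4). Both ratios varied less between libraries than the genes did. The ratio of Col5a1 to Col5a2 was 1.24 ± 0.21 in liver tumors and 1.89 ± 0.50 in primary tumors, without overlap (exact permutation p = 0.1, adjusted over 5 ratios 0.167).

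Col4a1 and Col4a2 lie head to head on chromosome 8 (GRCm38), with first exons that overlap by 22 bases. The 150 bases before the RefSeq start of each (GRCm38.p6) are shown since the starts lie so close that each stretch runs into the other gene. Capitals mark CCAAT and the GC box GGGCGG on either strand.

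Col4a1, chr8:11312827-11312976, minus strand: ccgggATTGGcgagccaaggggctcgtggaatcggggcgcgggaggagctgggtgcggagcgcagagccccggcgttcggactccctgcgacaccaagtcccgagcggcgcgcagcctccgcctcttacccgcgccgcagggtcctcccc

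Col4a2, chr8:11312655-11312804, plus strand: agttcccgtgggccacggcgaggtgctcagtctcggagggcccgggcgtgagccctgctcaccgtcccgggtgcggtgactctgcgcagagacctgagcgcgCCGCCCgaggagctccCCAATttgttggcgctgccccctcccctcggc

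Both stretches hold a CCAAT match, and that of Col4a2 also holds a GC box match. Starts also lie head to head in Col4a4 and Col4a3 (71 bases apart on chromosome 1), and 1308 bases apart in Col4a6 and Col4a5 on chromosome X.

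Among the other types, the beaded-filament collagen VI was split by chain. Type VI links cells to the surrounding matrix, and its usual trimer joins the alpha1, alpha2 and alpha3 chains. Col6a1 had 18.1, 25.8 and 31.2 FPKM in liver tumors, against 44.5, 14.3 and 28.0 FPKM in primary tumors (log2 change -0.23, SE 0.40, adjusted p = 0.716). The sites overlapped fully, and the sign of the change turned to 0.22 without primary library 1. Col6a2, the alpha2 chain, had 5.58, 8.63 and 9.94 FPKM in liver tumors, against 11.8, 4.42 and 6.06 FPKM in primary tumors (log2 change 0.10, SE 0.37, adjusted p = 0.868). Its values also overlapped between the sites. The ratio of Col6a1 to Col6a2 was 3.12 ± 0.12 in liver tumors and 3.89 ± 0.69 in primary tumors, without overlap (SD, n = 3 each, exact permutation p = 0.1, adjusted over 5 ratios 0.167).

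Col6a3, the large alpha3 chain, rose in liver tumors. It had 6.87, 7.28 and 7.29 FPKM in liver tumors, against 4.15, 0.91 and 2.21 FPKM in primary tumors (log2 change 1.54, SE 0.46, adjusted p = 0.0460). All liver values lay above all primary values. The ratio of Col6a3 to Col6a1 was 0.30 ± 0.07 in liver tumors and 0.08 ± 0.01 in primary tumors, a log2 difference of 1.91 (SE 0.26, n = 3 each, exact permutation p = 0.1, adjusted over 5 ratios 0.167). The Col6a3 call was lost without any 1 liver library or without primary library 3, at an adjusted p of up to 0.130. It was also lost without the filter on low counts (adjusted p = 0.0529) and among genes of at least 5 CPM (adjusted p = 0.0544).

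The alternative chains Col6a5 and Col6a6 are neighbours on chromosome 9, both on the minus strand, at 105856078 to 105960643 and 105687809 to 105828160 (GRCm38). Col6a6 had 36, 43 and 40 reads in liver tumors, against 1, 2 and 1 reads in primary tumors. The log2 change was 5.11 (SE 0.53, adjusted p = 0.000286), and the call held without any 1 library. Col6a5 had 27, 86 and 90 reads in liver tumors, against 42, 10 and 25 reads in primary tumors (log2 change 1.75, SE 0.52, adjusted p = 0.0455). Its reads overlapped between sites, also by share of all reads (27 of 28513818 in liver library 1, against 42 of 32326042 in primary library 1). On TMM-scaled CPM (1.19 to 2.94 in liver tumors, against 0.346 to 1.03 in primary tumors) the sites did not overlap. The Col6a5 call was lost without any 1 liver library, primary library 2 or primary library 3, at an adjusted p of up to 0.176, and in limma on log2(FPKM + 1) at 0.0851.

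The 150 bases before their starts are given because these neighbours were both called higher. Capitals mark the GC box GGGCGG on either strand.

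Col6a5, chr9:105960644-105960793, minus strand: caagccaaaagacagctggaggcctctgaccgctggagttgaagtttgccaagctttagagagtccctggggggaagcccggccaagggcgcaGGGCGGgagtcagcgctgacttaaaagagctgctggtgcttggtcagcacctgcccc

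Col6a6, chr9:105828086-105828235, minus strand: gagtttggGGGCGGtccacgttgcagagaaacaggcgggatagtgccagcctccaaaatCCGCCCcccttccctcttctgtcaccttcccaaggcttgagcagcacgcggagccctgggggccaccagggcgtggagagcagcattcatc

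The fibril-associated chain Col14a1 showed the clearest change of an abundant collagen. Type XIV collagen sits on the surface of type I fibrils. Col14a1, on chromosome 15 at 55307750 to 55520803 (GRCm38, plus strand), had 12.2, 19.6 and 9.33 FPKM in liver tumors, against 0.83, 0.58 and 0.26 FPKM in primary tumors. The lowest liver library was well above the highest primary one. The log2 change was 4.60 (SE 0.47, adjusted p = 0.000281) and ran from 4.26 to 5.01 when libraries were left out in turn.

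The transmembrane chain Col25a1, known from nerve and muscle, had 42, 41 and 38 reads in liver tumors, against 2, 1 and 5 reads in primary tumors. The log2 change was 4.27 (SE 0.54, adjusted p = 0.000900). It held without any 1 library, but not in limma on log2(FPKM + 1), where the change of so low a gene is compressed to 0.15 (adjusted p = 0.0740).

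The multiplexins Col18a1 and Col15a1 belong to the basement membrane zone, and the C-terminal piece of type XVIII is endostatin. Col18a1 had the highest mean of all members. It reached 107, 135 and 104 FPKM in liver tumors, against 77.6, 70.3 and 58.6 FPKM in primary tumors. The sites did not overlap in FPKM or CPM, yet the log2 change of 0.73 (SE 0.23) just missed the threshold (adjusted p = 0.0551). By share of all reads they overlapped, with liver library 1 (17117 of 28513818) below primary library 1 (22227 of 32326042). Col18a1 was called higher by DESeq2 (adjusted p = 0.00910), by edgeR among genes of at least 5 CPM (adjusted p = 0.0438) and by limma on log2(FPKM + 1) (adjusted p = 0.0310), but not when any 1 library was left out, at an adjusted p of up to 0.209. Col15a1 had 9.67, 10.5 and 12.6 FPKM in liver tumors, against 8.99, 2.55 and 5.19 FPKM in primary tumors (log2 change 0.95, SE 0.40, adjusted p = 0.126). Without primary library 1 it was called higher (log2 change 1.47, adjusted p = 0.0185).

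Col10a1, the network-forming chain of hypertrophic cartilage, was the 1 member lower in liver tumors. It had 10, 11 and 15 reads in liver tumors, against 45, 121 and 41 reads in primary tumors. All liver values lay below all primary values, and primary library 2, which also had the most epithelial marker RNA, stood highest. The log2 change was -2.30 (SE 0.63, adjusted p = 0.0340). The call was lost without any 1 liver library, with an adjusted p of up to 0.139, and in limma on log2(FPKM + 1) at 0.123. Without primary library 2 the log2 change was -1.33 (adjusted p = 0.0343).

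The remaining tested members outside the fibrillar and type IV classes were Col7a1, Col8a1, Col8a2, Col9a3, Col13a1, Col16a1, Col20a1, Col23a1 and Col28a1. Their log2 changes lay between -1.12 and 0.75, with adjusted p-values from 0.183, and all overlapped between the sites.

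The start regions of Col10a1 and Col3a1 are shown as the single lower member and the most abundant higher one. Capitals mark TATAAA on either strand.

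Col10a1, chr10:34389831-34389980, plus strand: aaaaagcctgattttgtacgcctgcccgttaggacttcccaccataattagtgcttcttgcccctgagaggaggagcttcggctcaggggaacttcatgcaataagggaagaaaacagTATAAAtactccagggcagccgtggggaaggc

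Col3a1, chr1:45311388-45311537, plus strand: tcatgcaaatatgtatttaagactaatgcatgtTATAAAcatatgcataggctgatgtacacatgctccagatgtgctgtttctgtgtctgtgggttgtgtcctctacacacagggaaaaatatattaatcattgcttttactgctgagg

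The TATAAA match of Col10a1 begins 32 bases before the start, and that of Col3a1 117 bases before it. RefSeq gave 300-base start regions for 33 of the 41 members, 36 regions in all. TATAAA on either strand was in 13.9% of these and in 13.6% of all 32851 regions in the table. CCAAT on either strand was in 33.3% of the collagen regions and 37.4% of all, and GGGCGG in 61.1% of the collagen regions and 35.7% of all.

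Partner genes of collagen were called in both directions. The counts of each list stand beside 16.7% of all genes called higher and 6.26% called lower. Of 33 tested genes of synthesis, folding and crosslinking, 3 rose and 4 fell in liver tumors, so that 7 of 33 were called, where 23.0% of all genes were. Their median change was -0.12 (log2). P3h2, a prolyl 3-hydroxylase active on type IV collagen, had 1.04, 1.03 and 0.81 FPKM in liver tumors, against 0.26, 0.25 and 0.20 FPKM in primary tumors (log2 change 1.995, adjusted p = 0.00358). Adamts2, the N-propeptidase of fibrillar procollagen, and the lysyl hydroxylase Plod1 also rose, by 1.51 and 0.87. Pcolce, an enhancer of C-propeptide cleavage, had 30.8, 24.96 and 37.9 FPKM in liver tumors, against 55.2, 51.1 and 50.6 FPKM in primary tumors (log2 change -0.76, adjusted p = 0.0377). Creb3l1, a transcription factor of the secretory pathway, fell by 1.26 on the log2 scale, Tll1 by 2.44 and Colgalt2 by 1.16.

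Of 11 tested collagen receptors, 2 rose and 2 fell. The mesenchymal discoidin receptor Ddr2 had 1.54, 1.78 and 1.59 FPKM in liver tumors, against 0.89, 0.44 and 0.72 FPKM in primary tumors (log2 change 1.24, adjusted p = 0.0202). Its epithelial relative Ddr1 had 16.4, 18.4 and 26.5 FPKM in liver tumors, against 39.3, 55.3 and 37.9 FPKM in primary tumors (log2 change -1.12, adjusted p = 0.0170). The leukocyte receptor Lair1 rose by 1.02 and the integrin chain Itga2 fell by 0.86 on the log2 scale.

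Of 14 tested fibril-associated matrix genes, 4 rose and 1 fell. Dcn, the proteoglycan decorin that binds type I fibrils, had 41.2, 59.8 and 32.5 FPKM in liver tumors, against 6.36, 5.76 and 1.77 FPKM in primary tumors (log2 change 3.25, adjusted p = 0.00212). Its relatives Lum, Prelp and Bgn rose by 2.65, 1.90 and 1.55, and Aspn fell by 3.59 on the log2 scale. Of 16 tested basement membrane partners, 2 rose and 2 fell: the laminin chains Lama1 and Lama2 rose by 2.94 and 1.71, while Lamb2 fell by 0.96 and Agrn, the proteoglycan agrin, fell by 0.76.

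Summed markers of mesenchymal cells and of some, but not all, other cell types were higher in liver tumors in bulk tissue. Of 18 fibroblast markers 7 were higher and 1, Mfap5, lower in liver tumors, where 16.7% of all genes were called higher and 6.26% lower. The median of their log2 changes was 0.05, and their sum was 1026 to 1261 CPM in liver tumors, against 354 to 835 CPM in primary tumors. Primary library 1, the highest primary library for Col3a1, Col1a1 and Col1a2, had the 835 CPM. Of 15 stellate and mural markers 10 were higher, with a median log2 change of 1.69 and sums of 497 to 652 CPM in liver tumors, against 443, 227 and 420 CPM in primary libraries 1, 2 and 3. Primary library 3 thus had nearly the stellate and mural sum of primary library 1, while its Col3a1 level was that of primary library 2. Lrat, the enzyme that stores retinol in stellate cells, had 559, 496 and 467 reads in liver tumors, against 1, 0 and 0 reads in primary tumors. No marker of either list was without reads in all primary tumors. Markers of other cells were higher too, 8 of 16 endothelial, 8 of 9 liver sinusoidal endothelial and 8 of 13 monocyte or macrophage markers, and none of these lists had a marker that was lower. Other lists did not go this way. Epithelial markers summed to 3170 to 3705 CPM in liver tumors, against 4475 to 14121 CPM in primary tumors. Acinar and Schwann cell sums were also lower in liver tumors, and T cell and adipocyte sums overlapped. Of 8 mast cell markers 4 were lower and 0 higher. The part of these cells in the collagen values was not tested.

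The single-cell libraries show which of the captured cells carried collagen RNA. They came from a sort for CD45+ cells, so cells of other kinds in them lie outside the sorted gate, and their shares do not measure the tumor. Barcodes with at least 1500 UMIs (unique molecules) and at most 10% mitochondrial UMIs numbered 7617 in the liver library and 2280 in the primary library. Their median was 6750 UMIs in the liver library and 12014.5 in the primary library, and 8 barcodes occurred in both. With 1 library per site no test was made, and intervals cover counting error only. All 41 members are in the gene list, with 37 seen in the liver library and 36 in the primary library.

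Most fibrillar UMIs of the primary library lay in 13 cells. Cells were clustered without the collagen genes. Cluster 21, with 4 liver and 13 primary cells, was led by Sparc, Col3a1, Col1a2, Dcn, Mgp and Col1a1. It held 20.7% of the fibrillar UMIs of the liver library and 94.0% of those of the primary library. Collagens made up a median of 0.853% of UMIs in its liver cells and 1.49% in its primary cells, with a highest value of 4.72% in a primary cell. In the liver library, epithelial tumor cell-like clusters held more of the fibrillar UMIs than cluster 21, with 920 of 1946 (47.3%). In the primary library they held 2.37%.

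Cluster 21 is left unnamed. It scored as mesothelial, but 1 of its leading genes was on the fibroblast list. In at least 2 of its 17 cells, 8 of 9 mesothelial and 14 of 18 fibroblast markers were seen. So were 12 of 13 monocyte or macrophage and 11 of 16 epithelial markers, so this count does not name the cluster. The fibroblast markers Dcn and Pdgfra were seen in 17 and 14 cells, but Mfap5, Clec3b, Lum and Dpt in only 4, 4, 2 and 1. The mesothelial markers Wt1, Nkain4, Upk1b and Muc16 were seen in 17, 15, 10 and 6. The libraries differed: Pdgfra was seen in 1 of 4 liver and 13 of 13 primary cells. Upk1b was seen in 3 of 4 liver and 7 of 13 primary cells, and Wt1 in all cells of both. The keratin gene Krt8 was seen in 16. Ptprc, the gene of CD45, was seen in 4 cells with 5 UMIs in all, and Pecam1, an endothelial gene, in none. In CPM of UMIs, Col3a1 reached 1893 CPM (169 UMIs) in its liver cells and 5128 (3312 UMIs) in its primary cells. Col1a2 reached 964 CPM in the liver cells and 4334 in the primary cells. Col1a1 reached 863 CPM in the liver cells and 2832 in the primary cells. The type VI chain Col6a1 was at 1423 CPM in the liver cells and 610.0 in the primary cells, and Col6a3 at 22.4 in the liver cells and 291 in the primary cells. So few cells allow no comparison between sites.

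Type XVIII UMIs lay mostly in epithelial tumor cell-like clusters, chiefly cluster 11, and type IV UMIs in part. These clusters held 2327 liver and 227 primary cells, and 69.7% of the type IV UMIs of the liver library and 42.9% of those of the primary library. Col18a1 was at 160 CPM in liver cells (95% exact Poisson interval 155 to 165) and 125 (114 to 137) in primary cells. Within these clusters it was uneven: cluster 11, the deepest, had 314 in liver cells and 186 in primary cells, and clusters 2, 5 and 8, where a library had at least 50 cells, had 26.6 to 43.9. Cluster 11 held 3308 of the 5175 Col18a1 UMIs of the liver library and 401 of the 670 of the primary library. The unnamed cluster 0, of 1198 liver and 94 primary cells, had 146 in liver cells (interval 135 to 158) and 232 in primary cells (196 to 272). Col4a1 was at 45.3 in liver cells and 57.2 in primary cells of the epithelial-like clusters, and at 88.5 in liver cells and 86.3 in primary cells of cluster 11. Col27a1 was at 24.7 in liver cells and 43.7 in primary cells. Col3a1 was at 2.21 in liver cells and 1.97 in primary cells.

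Free RNA bears on these levels. Barcodes of 10 to 100 UMIs, which hold mostly free RNA, had 543 CPM of collagens in both libraries, more than the epithelial-like cells with 294 in the liver library and 345 in the primary library. Col18a1 was at 98.1 in such liver barcodes and 58.2 in primary ones. The levels of cluster 11 and cluster 0 lay above these in both libraries, and those of clusters 2, 5 and 8 below. Col27a1 was at 10.4 in liver barcodes and 2.65 in primary ones, below the epithelial-like level in both. Col4a1 was at 66.8 in liver barcodes, above the epithelial-like level, and at 39.7 in primary ones, below it. These barcodes held 479256 UMIs in all in the liver library and 377770 in the primary library. Their levels of single genes thus rest on few UMIs. Levels that lie close, such as those of Col4a1 in the primary library, cannot be ordered. In neutrophil-like cells, which are not known to make it, Col18a1 was at 63.5 in the liver library and 1.53 in the primary library, at median depths of 2089 UMIs in the liver library and 2726 in the primary library. Both levels lie below those of the free RNA. How much free RNA a cell's barcode held was not measured, so the source of these levels was not tested.

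**Figure D4:**
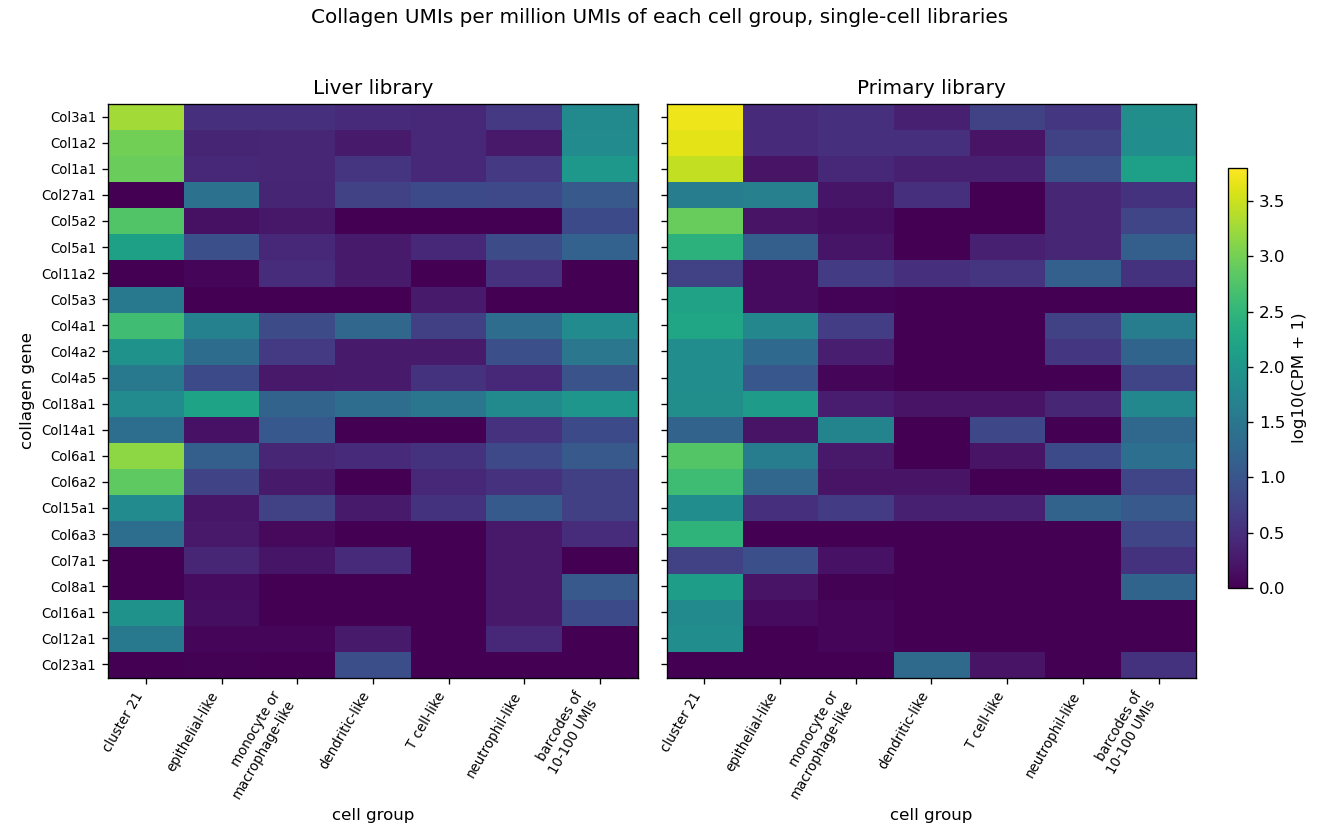
Colour gives log10(CPM + 1) of the 22 collagen genes with the most UMIs (rows) in each cell group (columns) of the liver library (left) and the primary library (right). Fibrillar chains are bright in cluster 21, Col18a1 and Col4a1 also in epithelial-like cells, and Col14a1 stands out in the monocyte or macrophage-like cells of the primary library.

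Col14a1 was the member most clearly seen in immune-like cells. Monocyte or macrophage-like cells had 10.3 CPM (167 UMIs, interval 8.78 to 11.96) in the liver library and 51.1 (958 UMIs, 47.9 to 54.5) in the primary library. Different clusters hold most of this class, 6 and 10 in the liver library and 3 and 9 in the primary library. The class leaves out cluster 1 (1104 liver and 31 primary cells). It scored as monocyte or macrophage but stayed unnamed, as 1 leading gene was on the adipocyte list. Cluster 7 (332 liver and 205 primary cells), led by Arg1, is also unnamed and outside the class. The class held 167 of the 296 Col14a1 UMIs of the liver library and 958 of the 1029 of the primary library. In cluster 9, present in both, the level was 14.5 (7.47 to 25.3) in liver cells and 54.3 (49.3 to 59.8) in primary cells. Col14a1 was seen in 7.19% of macrophage-like cells of the liver library and 37.6% of those of the primary library. In T cell-like cells, which are not known to express it, the share was 0% in the liver library and 3.10% in the primary library. Median depths were 9698 UMIs in macrophage-like and 5833 UMIs in T cell-like cells of the liver library, and 14017 UMIs and 10722 UMIs in those of the primary library. After thinning each cell to 1000 UMIs the shares were 1.37% in the liver library and 3.53% in the primary library.

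Barcodes of 10 to 100 UMIs had 6.26 CPM of Col14a1 (interval 1.29 to 18.3) in the liver library and 18.5 (7.45 to 38.2) in the primary library. The macrophage-like level lay within this interval in the liver library and above it in the primary library. T cell-like cells had 0 UMIs in 163 liver cells, which allows up to 2.60 CPM, and 5.62 CPM in the primary library. Cluster 21 had 22.4 CPM (2 UMIs) in liver cells and 15.5 (10 UMIs) in primary cells. The order of the sites in the named macrophage-like clusters, lower in the liver library, was opposite to bulk tissue, where Col14a1 was higher in liver tumors. Which cells hold the Col14a1 RNA of liver tumors was not tested.

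**Figure D5:**
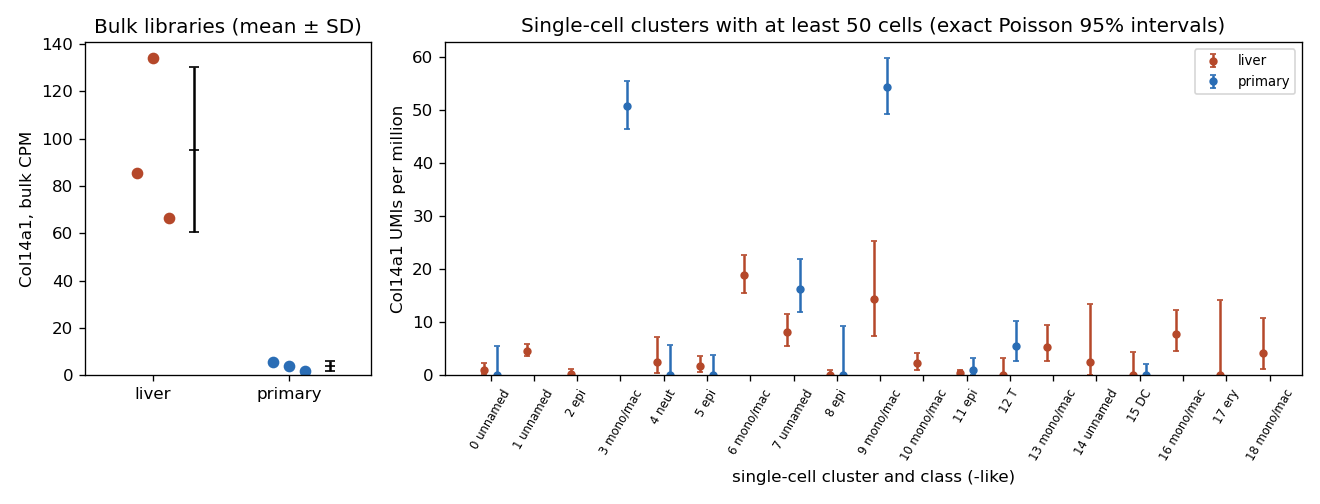
Col14a1 is shown in bulk CPM by site (left, points per library with mean ± SD) and in CPM by single-cell cluster (right, with exact Poisson 95% intervals, cells of at least 50 per cluster and library). Liver is the higher site in bulk, and primary is higher in cluster 9. Of the clusters named monocyte or macrophage, only cluster 9 has at least 50 cells in each library. The unnamed cluster 7 and clusters of other classes also have that many.

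The other called members were seldom seen in cells. Col6a6 had 0 UMIs in all cells of both libraries. Col25a1 had 0 UMIs in the liver library and 1 in the primary library, Col10a1 had 1 in each, and Col6a5 had 3 in the liver library and 14 in the primary library. Col6a3 had 34 UMIs in the liver library and 191 in the primary library, and 188 of those in the primary library lay in cluster 21.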

How the data were processed

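The members, gene lists and tests were chosen with earlier results of these data known. Per the submitters' processing notes bcl2fastq, Cell Ranger and mm10 were used, without a role for each; the bulk aligner and counter are not given in the sources used here. The authors deposited raw read counts per gene symbol, normalized signal (each count divided by 1 factor per library, not used for tests) and FPKM, which is that signal over a length constant of each gene. The deposited single-cell matrices hold UMI counts for all 6794880 barcodes and 31053 genes, and their headers name software version 3.0.0.

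The quasi-likelihood test of edgeR 4.0.16 under R 4.3.3 (robust, two-sided, site as the only term, TMM scaling, filterByExpr) was run on bulk counts, with Benjamini-Hochberg adjustment over 16487 genes. CPM use TMM-scaled totals. Sums, shares and ratios of FPKM were compared by exact permutation tests. DESeq2 1.42.0, limma 3.58.1 on log2(FPKM + 1), RLE factors, other filters, a replicate block and leaving out each library were alternatives. Tested on simulated counts of this comparison (16200 genes), edgeR found 13 of 100 genes changed by 1 and 83 of 100 changed by 2 on the log2 scale, and called 4 unchanged genes. Libraries were not treated as paired in the main test. Named genes were the members past the threshold and the 10 of highest mean FPKM, and up to 3 called genes per partner list and direction, by p-value; other called partner genes, and other members named with values (such as Col5a3, Col6a2, Col12a1, Col27a1 and the minor type IV and XI chains), were added after their values were seen.

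Single cells were analysed in scanpy 1.11.5 (Python 3.11.15, leidenalg 0.10.2) with 2000 variable genes other than collagens, 30 components, 15 neighbors and Leiden resolution 1, without integration. Of barcodes with at least 1500 UMIs, 39.1% in the liver library and 69.5% in the primary library exceeded 10% mitochondrial UMIs and were dropped. Scrublet marked 1 of 7618 liver and 2 of 2282 primary barcodes, so it did not work as a doublet filter here. Clusters were named from marker lists. Intervals are exact Poisson or Clopper-Pearson at 95%. Start regions are from RefSeq (GRCm38.p6), gene positions from GENCODE M21 (GRCm38).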

Additional observations from a re-analysis of the deposited data

How the results depend on the processing

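The count of collagen members called higher in liver tumors was 6, and 10 with DESeq2 and 3 among genes of at least 5 CPM; leaving out libraries in turn gave 3 to 10. The count called lower was 1, and 0 with limma on log2(FPKM + 1), 0 among genes of at least 5 CPM and 0 to 3 when libraries were left out. Without the filter on low counts Col6a3 and Col6a5 lost their calls. The 5 CPM minimum removes Col6a5, Col6a6, Col10a1 and Col25a1 from the test. With replicate numbers as a block, 6 members were higher and 1 lower: Col6a5 was lost (adjusted p = 0.0704) and Col5a3 gained. The labels do not say whether a number pairs 2 libraries. Deviations from the site mean of same-numbered libraries correlated at -0.20, 0.28 and 0.10, which cannot settle it with so few libraries. With libraries left out in turn, the log2 change of Col6a1 ran from -0.55 to 0.22, turning positive without primary replicate 1. Partner genes called higher numbered 11 and ran from 4 to 16 with libraries left out; those called lower numbered 9, 14 with DESeq2, 5 among genes of at least 5 CPM, and 1 to 12 with libraries left out. The cause of these shifts was not tested. Sums, shares and chain ratios of FPKM stayed within the replicate spread under the alternatives run, and kept their direction except the ratio of Col1a1 to Col1a2, whose log2 difference of -0.01 ran from -0.05 to 0.07 with libraries left out.

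In single cells, collagen CPM at a 3000 UMI minimum were 365.5 in primary epithelial-like cells, 48.6 in liver and 68.87 in primary macrophage-like cells and 99.11 in liver neutrophil-like cells. With up to 20% mitochondrial UMIs they were 452.7 in liver and 413.2 in primary epithelial-like cells and 84.31 in primary macrophage-like cells. With marked doublets kept, primary macrophage-like cells had 72.16. Clusters were formed and named anew in each setting, so these classes do not hold the same cells. Liver macrophage-like cells numbered 1531 in the main setting and 2639 at the 3000 UMI minimum. With marked doublets kept, liver epithelial-like cells went from 2327 to 3534 and primary macrophage-like cells from 1246 to 1450. An alternative chosen after seeing the data left out the 6% of highest Scrublet scores: primary epithelial-like cells then had 318, primary macrophage-like cells 69.38, and primary cells with at least 3 fibroblast markers 11650, against 11249 before. With 3 libraries a site, a change of 1 on the log2 scale was seldom called.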
